A study of Mus musculus with 9 samples.

Results

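B cell receptor (BCR) signalling genes were compared among 3 subsets of mouse splenic B cells. The set holds 43 genes, chosen by name for their part in BCR signalling, from the receptor chains to the calcium and protein kinase C branches. The choice was made with earlier results of these data known. All 43 were found among the 24459 rows of the expression table, none on a repeated symbol, and 41 of them reached the minimum level for a test. The values are FPKM, which count the fragments of a gene relative to its exon length and to the depth of the library.

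The 3 subsets were follicular (FO) B cells with high surface IgD, follicular B cells with low surface IgD (BDL), and marginal zone (MZ) B cells. All came from spleens of naïve mice aged 8 to 10 weeks that carried no transgene or treatment named in the labels. The labels give the strain as C57/BL6, whereas the study's methods describe RNA-seq on B10.PL mice. B cells were first enriched by negative magnetic selection. The labels give the sort as B220+IgMintCD21intCD23+CD93- for FO and BDL and as B220+IgMhiCD21hiCD23-CD93- for MZ. Each subset was sorted 3 times, each time from the pooled spleens of 5 mice, which gave 9 libraries in all. Libraries with the same number (1, 2 or 3) carry the same date in their titles. The titles do not say what the date stands for, and it is called the sort date here for short. The numbers do not follow time: by the dates in the titles, those numbered 2 were the latest.

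The BCR is a surface immunoglobulin paired with CD79A and CD79B, whose cytoplasmic tails carry tyrosine motifs. Src-family kinases phosphorylate these motifs, SYK binds them, and SYK and BTK then act through the adaptor BLNK on phospholipase C gamma 2. The lipase feeds calcium release and NFAT, protein kinase C beta with the complex of BCL10 and MALT1, and the Ras exchange factors of the RASGRP family. CD22, the phosphatases SHP-1 and SHIP-1, CSK and the CBL ubiquitin ligases hold the signal in check. MZ B cells are known for responding fast to blood-borne antigen, and FO B cells for recirculating and joining T cell-dependent responses.

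All 6 B cell markers examined were present, with a summed level of 2977 to 4311 FPKM per library. Of 12 T cell markers, 10 had a mean under 0.5 FPKM. The column sums ran from 446033 to 517208 FPKM, and the steps between low values put the relative depth of the libraries between 0.897 and 1.213 times that of FO 1. BDL 2 lay farthest from its subset mean for 29 of the 41 genes tested and MZ 2 for 27. Both carry the same sort date, and the counts of calls are therefore also given without the 3 libraries of that date. In FO, the library farthest from the subset mean was FO 3 for 23 genes, and FO 2 for only 8. In a bulk library, fewer cells of a type and less RNA per cell cannot be told apart.

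Of the 41 genes tested, 5 were called between BDL and FO, 23 between BDL and MZ and 19 between MZ and FO. A gene was called different at an adjusted p under 0.05 from limma, adjusted over all 11597 rows tested. Between BDL and FO, 2 genes were higher in BDL (Nfatc1 and Vav3), 3 were lower (Nfatc2, Pag1 and Rasgrp3) and 36 were not called. Over all rows tested, 6.04% were called higher and 1.68% lower in that comparison. None of the 41 genes reached 2-fold between BDL and FO with limma, also at an unadjusted p under 0.05, whereas 1.91% of all rows were called and at least 2-fold apart. Cblc and Ubash3a, which were not among the 41, are given separately. Groups did not overlap for 12 of the 41 genes between BDL and FO (34.8% of all rows), and for 27 each between BDL and MZ (38.9%) and between MZ and FO (46.1%).

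Between BDL and MZ, 16 genes were higher in BDL, 7 were lower and 18 were not called, against 16.5% higher and 11.6% lower over all rows. Between MZ and FO, 13 genes were lower in MZ, 6 were higher and 22 were not called, against 12.8% lower and 14.3% higher over all rows. Rasgrp3 and Nfatc2 were at least 2-fold apart between BDL and MZ, where 7.8% of all rows were, and Rasgrp3 and Rasgrp2 between MZ and FO, where 8.92% of all rows were. The 3 comparisons share libraries, 3 per subset, so their counts are not independent of each other. The median log2 fold change of the 41 genes was 0.31 for BDL over MZ, beside 0.06 for all rows. It was -0.19 for MZ over FO, beside -0.01 for all rows, and 0.07 for BDL over FO, beside 0.05.

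The numbers of the libraries stand for the dates in the titles, so the calls were also made with the date as a term in the model (the date block). Between BDL and FO, the block gave 5 genes higher in BDL, namely Nfatc1 and Vav3 with Cblb, Cd79b and Csk (adjusted p = 0.0198, 0.0414 and 0.046 with limma), and 4 lower, with Malt1 added (adjusted p = 0.00853). It also gave more calls over all rows, 15.6% higher and 4.93% lower. Between BDL and MZ, 23 genes were higher and 7 lower in BDL, as compared to 26.2% and 16.5% of all rows. The genes added were Cd79a, Cd79b, Fyn, Grb2, Nfatc3, Pik3r1 and Ptprc, with an adjusted p of 0.00982 for Cd79a and at most 0.0482 for the others. Between MZ and FO, 9 genes were higher and 18 lower in MZ, as compared to 19.7% and 19.1% of all rows. Cblb, Lyn and Nfatc2 were added as higher and Cd22, Cd79a, Fyn, Ptprc and Stim1 as lower, with an adjusted p between 0.0145 (Nfatc2) and 0.0496 (Cblb).

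Leaving out all 3 libraries of sort date 2 left 3 genes higher and 4 lower in BDL than FO (5.98% and 1.53% of all rows). It left 20 higher and 6 lower in BDL than MZ (22.2% and 11.4%), and 4 higher and 18 lower in MZ than FO (15% and 16.8%). Calls between BDL and FO fell when 1 FO library was left out, among these genes and over all rows. None of the 5 calls remained without FO 2 (2.48% of all rows higher and 0.405% lower), 1 remained without FO 1 (2.48% and 0.448%) and 2 without FO 3 (3.46% and 0.828%). Leaving out BDL 3 left 1 gene higher in BDL than FO, with 3.6% of all rows. The 13 genes lower in MZ than FO became 8 without FO 2, with 7.95% of all rows.

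**Figure D1:**
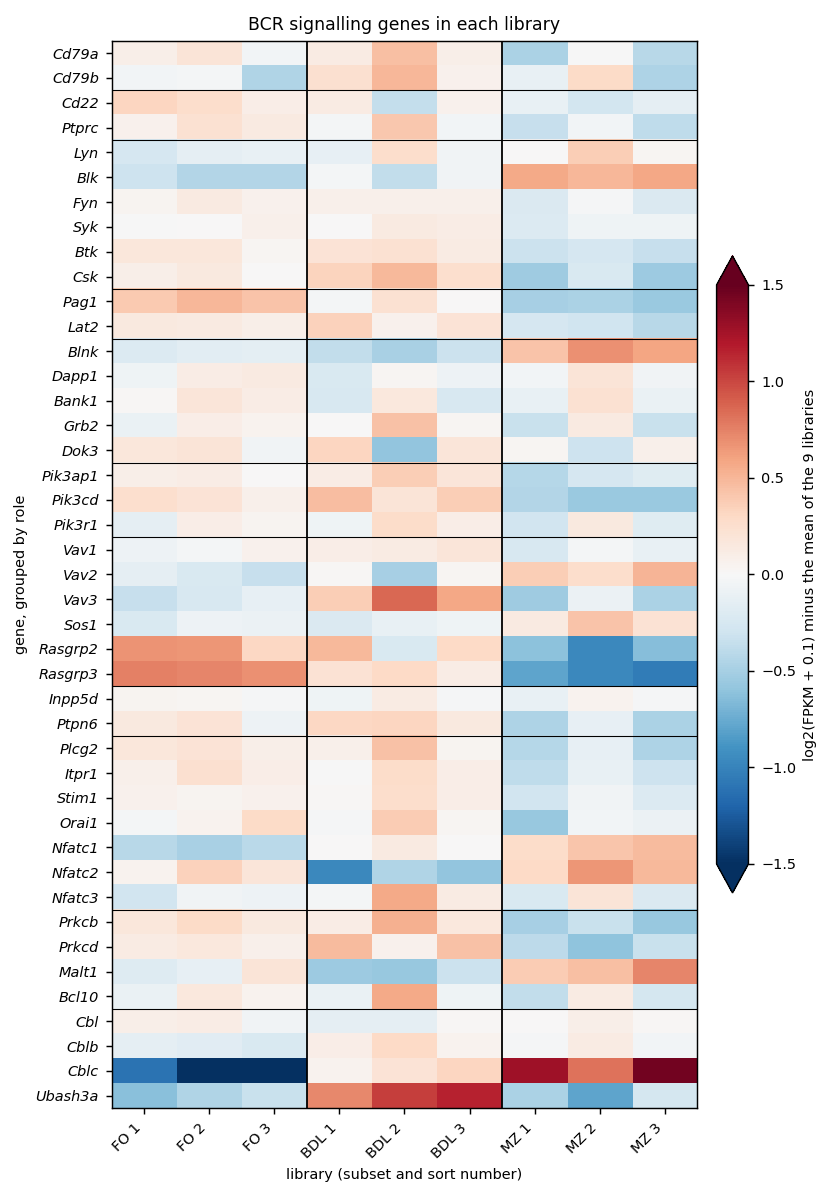
Heat map of the 43 BCR signalling genes (rows, grouped by role and parted by lines) in the 9 libraries (columns, by subset and sort), as log2(FPKM + 0.1) minus the mean of the 9 libraries, with colours limited to 1.5 either way. Rasgrp2, Rasgrp3 and Pag1 are low and Blk, Blnk and Nfatc1 high in the MZ columns, and Cblc and Ubash3a, both under 0.5 FPKM, show the widest range.

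**Figure D2:**
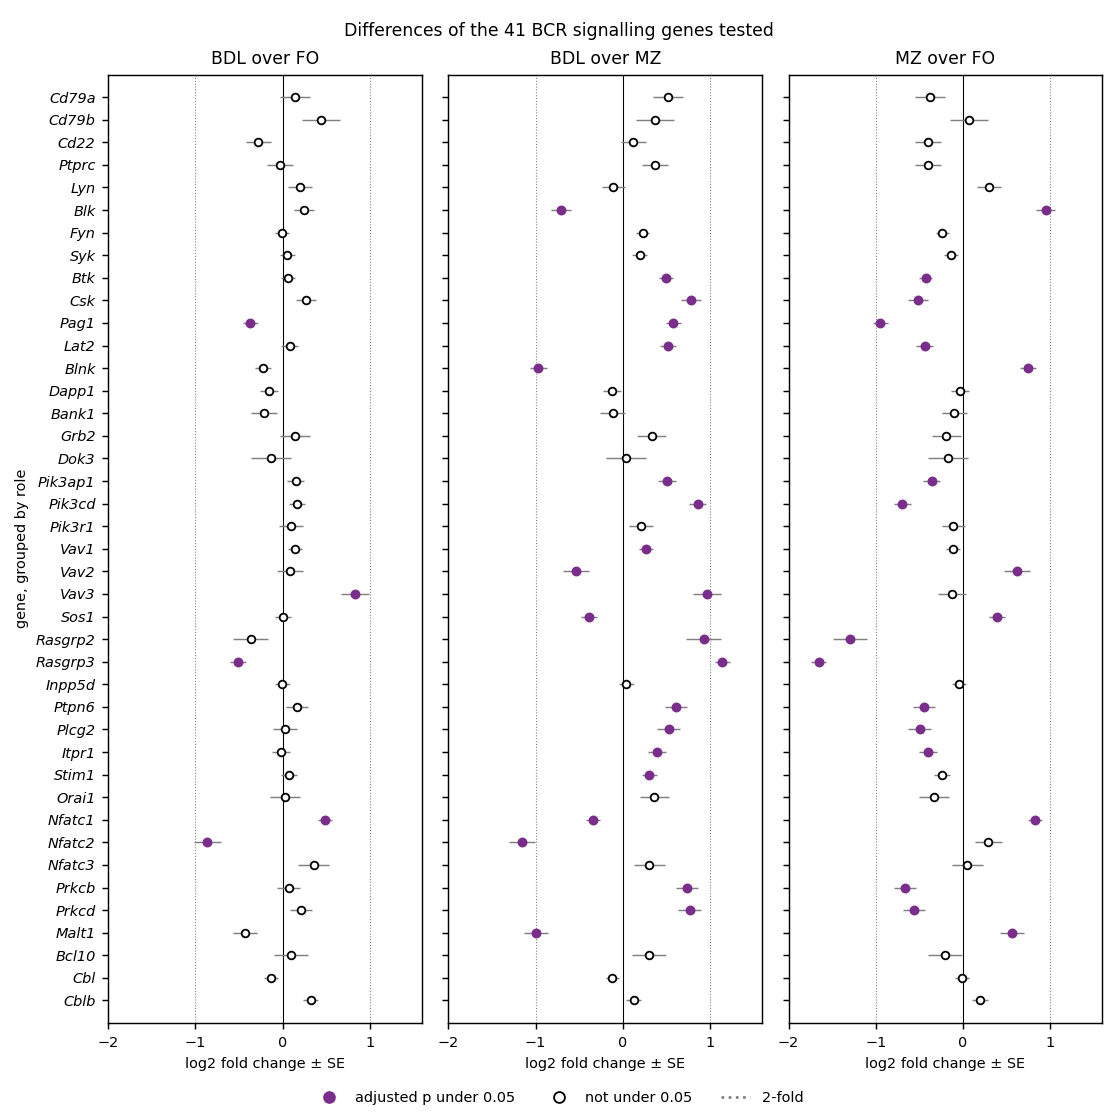
Log2 fold change with its standard error for the 41 genes tested, in the 3 comparisons (panels), with filled points at an adjusted p under 0.05 and dotted lines at 2-fold. There are 5 filled points for BDL over FO, 23 for BDL over MZ and 19 for MZ over FO, where 7.73%, 28.1% and 27.1% of all rows were called.

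Across the 3 comparisons, the 41 genes fell into 8 patterns of calls. Without the date block, the 18 genes called in no comparison were Bank1, Bcl10, Cbl, Cblb, Cd22, Cd79a, Cd79b, Dapp1, Dok3, Fyn, Grb2, Inpp5d, Lyn, Nfatc3, Orai1, Pik3r1, Ptprc and Syk. A further 11 genes were lower in MZ than in both follicular subsets and not called between BDL and FO, namely Btk, Csk, Itpr1, Lat2, Pik3ap1, Pik3cd, Plcg2, Prkcb, Prkcd, Ptpn6 and Rasgrp2. Blk, Blnk, Malt1, Sos1 and Vav2 were higher in MZ than in both and not called between BDL and FO. Pag1 and Rasgrp3 were called in all 3 comparisons, FO above BDL above MZ, and Nfatc1 in all 3 in the opposite order. Vav3 was higher and Nfatc2 lower in BDL than in both other subsets. Stim1 and Vav1 were called only as higher in BDL than MZ.

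Promoters of 34 of the 43 genes were found in the RefSeq table for GRCm38.p6. Cd79b, Lat2, Lyn, Itpr1, Malt1, Nfatc1, Cblc, Blk and Pag1 were not matched. The 250 bases before each start were searched on both strands for 4 motifs, chosen with the expression results known, none of which overlapped another in the windows shown. They were the octamer ATGCAAAT, bound by Oct factors, the E box CAGGTG, bound by E proteins, the core TGGGAA of sites for RBPJ, the DNA-binding partner of Notch receptors, and GAGGAAGT, of the type bound by PU.1. The E box was found for 13 of the 34 genes (38.2%), as compared to 19.4% of the 27025 genes of the table, the RBPJ core for 9 (26.5%, as compared to 24.1%), the PU.1 type for 5 (14.7%, as compared to 2.8%) and the octamer for 3 (8.8%, as compared to 1.8%). A gene with several starts has more windows to match. Counted by window, the E box was in 31.2% of the 48 windows of these genes and in 17.2% of all 32851. The RBPJ core was in 18.8% of the windows of these genes, below the 21.6% of all windows. Among the 10 genes that were lower in MZ than FO and had a promoter, 6 held the E box (Csk, Pik3ap1, Pik3cd, Plcg2, Prkcd and Ptpn6) and 5 the RBPJ core (Btk, Pik3cd, Plcg2, Ptpn6 and Rasgrp2). By window these were 43.8% and 31.2% of 16 windows. Of the 3 genes that were higher in MZ than FO and had a promoter, 1 held the E box (Blnk) and none the RBPJ core. A link of these motifs to the levels was not tested. A match is a run of letters and not a measured site.

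The windows below belong to 4 genes that were lower in MZ (Rasgrp3, Rasgrp2, Ptpn6 and Prkcd), to Blnk, which was higher in MZ, and to Nfatc2, which was lower in BDL. For a gene with several starts, the window shown is one whose first transcribed bases occur in an annotated transcript, with the most matches. Each runs 5′ to 3′ along the gene and ends at the base before the start, with motif matches in capitals. On GRCm38.p6 they are Rasgrp3 at chr17:75435655-75435904, plus strand, Rasgrp2 at chr19:6401455-6401704, plus strand, Ptpn6 at chr6:124738710-124738959, minus strand, Prkcd at chr14:30626209-30626458, minus strand, Blnk at chr19:40994222-40994471, minus strand, and Nfatc2 at chr2:168590366-168590615, minus strand.
Rasgrp3: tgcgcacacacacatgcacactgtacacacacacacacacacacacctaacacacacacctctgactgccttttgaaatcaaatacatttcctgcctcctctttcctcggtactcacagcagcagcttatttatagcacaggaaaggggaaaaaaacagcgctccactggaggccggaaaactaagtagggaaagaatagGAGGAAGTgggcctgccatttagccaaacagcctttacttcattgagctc
Rasgrp2: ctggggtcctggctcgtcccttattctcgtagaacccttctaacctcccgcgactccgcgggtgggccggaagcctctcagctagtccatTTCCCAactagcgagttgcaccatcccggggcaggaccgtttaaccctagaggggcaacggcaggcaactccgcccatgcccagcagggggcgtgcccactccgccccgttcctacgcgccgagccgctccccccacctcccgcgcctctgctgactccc
Ptpn6: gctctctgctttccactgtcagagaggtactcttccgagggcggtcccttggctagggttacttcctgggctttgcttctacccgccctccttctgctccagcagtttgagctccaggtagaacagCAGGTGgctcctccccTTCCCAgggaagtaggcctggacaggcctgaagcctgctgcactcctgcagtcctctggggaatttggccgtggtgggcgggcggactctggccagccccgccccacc
Prkcd: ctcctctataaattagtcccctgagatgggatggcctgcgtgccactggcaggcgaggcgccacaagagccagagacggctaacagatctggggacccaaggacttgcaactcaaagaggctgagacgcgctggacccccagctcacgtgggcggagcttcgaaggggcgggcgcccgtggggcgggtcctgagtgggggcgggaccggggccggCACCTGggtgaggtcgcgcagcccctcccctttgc
Blnk: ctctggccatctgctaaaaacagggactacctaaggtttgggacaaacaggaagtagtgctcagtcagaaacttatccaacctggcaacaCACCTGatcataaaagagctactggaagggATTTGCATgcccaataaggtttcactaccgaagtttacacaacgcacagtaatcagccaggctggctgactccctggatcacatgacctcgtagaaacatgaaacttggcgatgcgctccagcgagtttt
Nfatc2: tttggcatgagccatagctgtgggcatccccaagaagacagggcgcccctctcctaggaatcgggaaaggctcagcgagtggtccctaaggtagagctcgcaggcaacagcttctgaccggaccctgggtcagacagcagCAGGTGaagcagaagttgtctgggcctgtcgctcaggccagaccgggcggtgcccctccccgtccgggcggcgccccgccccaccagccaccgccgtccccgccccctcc
The capitals mark a PU.1 type match in Rasgrp3, an RBPJ core in Rasgrp2, an E box and an RBPJ core in Ptpn6, an E box in Prkcd, an E box and the octamer in Blnk, and an E box in Nfatc2. The E box of Prkcd lies 35 to 30 bases before the start and the octamer of Blnk 130 to 123 bases before it.

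The receptor chains Cd79a and Cd79b, which carry the signalling motifs of the BCR, had the highest levels of the set in every subset mean. Cd79a was at 1375, 1474 and 1253 FPKM in FO 1 to 3, 1413, 1762 and 1376 in BDL and 930.1, 1286 and 969 in MZ. All 3 BDL values lay above the highest MZ value, with a log2 fold change of 0.52 ± 0.17 (SE) that missed the threshold (adjusted p = 0.0516) without the date block and passed with it. Cd79b was at 800.4, 807 and 603 FPKM in FO, 972, 1159 and 861 in BDL and 758, 998 and 593 in MZ. Its BDL values lay above all FO values and overlapped those of MZ, and no comparison passed without the date block (adjusted p = 0.263 for BDL over FO). Both chains were highest within BDL and within MZ in the library of the second sort date.

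Cd22, a sialic acid-binding inhibitory co-receptor, was at 425, 406 and 363 FPKM in FO, 370.4, 266 and 355 in BDL and 315, 279.8 and 309 in MZ. The MZ values lay below all FO values, but the difference did not pass without the date block (log2 fold change -0.40 ± 0.14 (SE), adjusted p = 0.0757) and passed with it. Ptprc, the phosphatase CD45 that keeps Src-family kinases active, was at 293, 326 and 307 FPKM in FO, 274, 368 and 271 in BDL and 220.5, 272 and 214 in MZ, also without a call in the fit without the date block (adjusted p = 0.0875 for MZ over FO), and lower in MZ than in both with it. Ptpn6 encodes SHP-1, the phosphatase that CD22 recruits. It was at 316, 329 and 272 FPKM in FO, 353, 356 and 317 in BDL and 208, 262 and 205 in MZ, with all MZ values below those of both other subsets. It was higher in BDL than MZ (log2 fold change 0.61 ± 0.13, adjusted p = 0.00981) and lower in MZ than FO (-0.45 ± 0.13, adjusted p = 0.0364). The second of these calls was lost when MZ and FO were fitted alone and without any 1 of FO 1, FO 2, BDL 1, MZ 1 and MZ 3, with an adjusted p between 0.00930 and 0.129 over all 21 alternatives. Inpp5d, the lipid phosphatase SHIP-1, ran only from 55.7 to 65.8 FPKM over the 9 libraries. Its log2 differences were between -0.04 and 0.04.

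Of the Src-family kinases in the set, Blk alone was called without the date block. Blk, a kinase largely restricted to the B lineage, was at 172, 157 and 158 FPKM in FO, 209, 165 and 205 in BDL and 317, 303 and 320.3 in MZ. Every MZ library was above every other library, and FO and BDL overlapped. The log2 fold change was 0.95 ± 0.11 (SE) for MZ over FO (adjusted p = 0.000379) and -0.71 ± 0.11 for BDL over MZ (adjusted p = 0.00215). Lyn, which both starts and restrains BCR signalling, was at 90.1, 98.2 and 99.4 FPKM in FO, 98.9, 129 and 104 in BDL and 108, 139 and 110.0 in MZ, with a log2 fold change of 0.30 ± 0.14 for MZ over FO that did not pass without the date block (adjusted p = 0.145) and passed with it. Fyn was at 17.4, 18.7 and 17.7 FPKM in FO, 17.8, 17.8 and 17.9 in BDL and 14.5, 16.7 and 14.5 in MZ. Its MZ values lay below all others, with an adjusted p of 0.0522 against FO and 0.0563 against BDL, just short of the threshold, and both comparisons passed with the date block. The whole spread of Fyn over the 3 subset means was from 15.2 to 17.9 FPKM.

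Syk and Btk, the kinases that follow, differed in their calls. Syk ran from 154 to 194 FPKM over the 9 libraries and was called in no comparison. Btk was at 88.7, 88.7 and 80.5 FPKM in FO, 91.1, 92.6 and 85.7 in BDL and 63.2, 66.3 and 61.9 in MZ. It was higher in BDL than MZ (log2 fold change 0.49 ± 0.08, adjusted p = 0.00229) and lower in MZ than FO (-0.43 ± 0.08, adjusted p = 0.00437). FO and BDL overlapped for Btk.

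Csk, which phosphorylates the inhibitory tail tyrosine of Src-family kinases, was at 218, 227 and 205 FPKM in FO, 257, 286 and 243 in BDL and 142, 174 and 141 in MZ. The 3 subsets did not overlap, with BDL highest and MZ lowest. Csk had a log2 fold change of 0.79 ± 0.12 (SE) for BDL over MZ (adjusted p = 0.00156), -0.52 ± 0.12 for MZ over FO (adjusted p = 0.0117) and 0.27 ± 0.12 for BDL over FO, which did not pass without the date block (adjusted p = 0.195) and passed with it. The call between MZ and FO was lost without FO 2, with an adjusted p between 0.00241 and 0.0508 over the alternatives.

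Pag1 encodes a membrane adaptor that holds CSK at the plasma membrane, and its level fell in 1 order over the subsets. It was at 27.9, 30.03 and 28.7 FPKM in FO, 20.8, 24.9 and 21.4 in BDL and 15.1, 15.2 and 14.4 in MZ, with no overlap between any of them. For Pag1 the log2 fold change was -0.95 ± 0.08 (SE) for MZ over FO (adjusted p = 8.84e-05), 0.58 ± 0.08 for BDL over MZ (adjusted p = 0.00158) and -0.37 ± 0.08 for BDL over FO (adjusted p = 0.0362). The last of these passed in 13 of 21 alternatives. It was lost when BDL and FO were fitted alone and without any 1 of FO 1, FO 2, FO 3, BDL 1, BDL 3, MZ 1 and MZ 3, with an adjusted p between 0.0109 and 0.135 over the alternatives.

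Among the other adaptors, Lat2 and Blnk were called. Lat2, a membrane adaptor of the LAT type, was at 91.9, 90.7 and 87.8 FPKM in FO, 105, 86.4 and 95.2 in BDL and 69.7, 67.6 and 62.1 in MZ, and was lower in MZ than in both (log2 fold change -0.44 ± 0.09 against FO, adjusted p = 0.00916, and 0.52 ± 0.09 for BDL over MZ, adjusted p = 0.00428). Blnk, the scaffold that joins SYK and BTK to phospholipase C gamma 2, was at 125, 129 and 129.9 FPKM in FO, 112, 103 and 115 in BDL and 195, 232 and 218 in MZ. It was highest in all 3 MZ libraries, and its BDL values lay below all FO values. Blnk differed by 0.75 ± 0.09 (SE) on the log2 scale for MZ over FO (adjusted p = 0.000588) and -0.97 ± 0.09 for BDL over MZ (adjusted p = 0.000153), whereas BDL over FO did not pass (-0.22 ± 0.09, adjusted p = 0.190). Under upper quartile scaling and quantile normalization Blnk also passed 2-fold between BDL and MZ.

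The 4 remaining adaptors were called in no comparison without the date block, and Grb2 was higher in BDL than MZ with it. Dapp1, which binds products of phosphoinositide 3-kinase, ran from 18.7 to 25.1 FPKM over the 9 libraries. Bank1, a scaffold that binds LYN, ran from 149 to 207 FPKM, and Grb2, which links receptors to SOS, from 106 to 181 FPKM. Dok3, an inhibitory adaptor, was at 168, 89.6 and 153 FPKM in BDL 1 to 3. The low value of BDL 2 gave Dok3 the largest standard error of the 41 genes, 0.23 on the log2 scale.

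In the phosphoinositide 3-kinase branch, the catalytic subunit was lower in MZ and the regulatory subunit was not called without the date block. Pik3cd, the p110 delta subunit of leukocytes, was at 76.9, 74.03 and 67.7 FPKM in FO, 88.7, 73.5 and 83.3 in BDL and 47.3, 43.8 and 43.8 in MZ. Every MZ value lay below every other value. Pik3cd differed by 0.86 ± 0.10 (SE) on the log2 scale for BDL over MZ (adjusted p = 0.000336) and -0.69 ± 0.10 for MZ over FO (adjusted p = 0.000988). Pik3ap1, the adaptor BCAP that recruits the kinase to the BCR, was at 78.2, 79.3 and 73.9 FPKM in FO, 79.2, 94.6 and 83.6 in BDL and 54.7, 61.5 and 64.7 in MZ, with log2 fold changes of 0.51 ± 0.10 for BDL over MZ (adjusted p = 0.00635) and -0.36 ± 0.10 for MZ over FO (adjusted p = 0.0293). The MZ and FO call for Pik3ap1 was lost without any 1 of FO 1, FO 2, FO 3 and MZ 1 and without all libraries of sort date 2. Its adjusted p was between 0.0139 and 0.0946 over the alternatives. Pik3r1, the p85 alpha regulatory subunit, ran from 14.7 to 21.5 FPKM, with the 3 subsets overlapping.

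The exchange factors of the RASGRP family held the largest differences between MZ and FO among the 41 genes tested. On NCBIM37, Rasgrp3 lies on chromosome 17, 75835245.0 to 75928383.0, and Rasgrp2 on chromosome 19, 6399340.0 to 6415216.0. Rasgrp3, which diacylglycerol recruits to activate Ras after BCR engagement, was at 67.3, 66.1 and 64.2 FPKM in FO, 46.4, 49.2 and 43.3 in BDL and 23.1, 20.4 and 19.3 in MZ. The 3 subsets did not overlap, and BDL lay between the others. The log2 fold change was -1.65 ± 0.09 (SE) for MZ over FO (adjusted p = 6.29e-06), 1.14 ± 0.09 for BDL over MZ (adjusted p = 5.06e-05) and -0.51 ± 0.09 for BDL over FO (adjusted p = 0.0139). The last of these was lost without FO 1 or FO 2, with an adjusted p between 0.00750 and 0.0637 over the alternatives.

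Rasgrp2, known mainly as an activator of Rap GTPases, was at 142, 141 and 110.2 FPKM in FO, 124, 75.8 and 109 in BDL and 57.9, 45.2 and 56.8 in MZ. The MZ values lay below all others, while BDL and FO overlapped, with BDL 2 well below the other BDL libraries. Rasgrp2 differed by -1.29 ± 0.20 (SE) on the log2 scale for MZ over FO (adjusted p = 0.00181) and 0.93 ± 0.20 for BDL over MZ (adjusted p = 0.00984). An exon of Rasgrp2 overlaps Gm14965 on the opposite strand, and the sources differ on whether the libraries were stranded. Exons of Lyn, Pik3r1, Ptpn6, Orai1 and Nfatc3 also overlap a gene on the opposite strand, so these values may hold reads of the partner. Rasgrp1, a further member of the family that was outside the set, was at 40.1, 42.5 and 39.3 FPKM in FO, 52.8, 56.3 and 50.9 in BDL and 46.2, 51.8 and 45.3 in MZ. It was higher in BDL than FO (log2 fold change 0.39 ± 0.08, adjusted p = 0.0273), the opposite direction to Rasgrp3.

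The VAV exchange factors, which link the receptor to the cytoskeleton, differed among themselves in level and in order. Vav1 had the highest mean level in each subset, at 47.9, 49.6 and 52.9 FPKM in FO, 54.2, 55.2 and 57.1 in BDL and 42.9, 49.4 and 46.8 in MZ, and was higher in BDL than MZ by 0.26 ± 0.08 (SE) on the log2 scale (adjusted p = 0.0434). That call passed in 11 of 21 alternatives and was lost under both other scalings, when BDL and MZ were fitted alone and without any 1 of FO 1, FO 2, BDL 1, BDL 2, BDL 3, MZ 1 and MZ 3, with an adjusted p between 0.0137 and 0.235. Vav2 was at 30.6, 28.7 and 26.6 FPKM in FO, 34.1, 23.8 and 34.5 in BDL and 43.7, 40.6 and 48.1 in MZ, highest in the 3 MZ libraries. Its log2 fold change was 0.62 ± 0.15 for MZ over FO (adjusted p = 0.0167) and -0.54 ± 0.15 for BDL over MZ (adjusted p = 0.0302). Both Vav2 calls were lost without any 1 of FO 2, MZ 1 and MZ 3, the first also without FO 3 and the second when BDL and MZ were fitted alone, with an adjusted p of at most 0.101 for BDL over MZ and 0.0593 for MZ over FO.

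Vav3 had the lowest level of the VAV genes and was the gene of the set with the largest increase in BDL over FO among those tested. It was at 2.75, 2.96 and 3.21 FPKM in FO, 4.55, 6.44 and 5.28 in BDL and 2.39, 3.31 and 2.49 in MZ. Every BDL value lay above every other value, and FO and MZ overlapped. The log2 fold change was 0.83 ± 0.16 (SE) over FO (adjusted p = 0.0204) and 0.96 ± 0.16 over MZ (adjusted p = 0.00296). The call against FO was lost without any 1 of FO 1, FO 2, FO 3 and BDL 3, with an adjusted p between 0.00708 and 0.0893 over the alternatives, whereas the call against MZ passed in all 21. Sos1, the Ras exchange factor brought in by GRB2, was at 5.63, 6.28 and 6.26 FPKM in FO, 5.71, 6.16 and 6.34 in BDL and 7.30, 8.96 and 7.73 in MZ, and was higher in MZ than FO by 0.39 ± 0.10 (adjusted p = 0.0177) and lower in BDL than MZ, with -0.39 ± 0.10 (adjusted p = 0.0183). The Sos1 call against FO was lost without FO 1, and that against BDL without BDL 1 and when BDL and MZ were fitted alone. Both were lost without all libraries of sort date 2, with adjusted p of at most 0.0744 and 0.0657 over the alternatives.

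**Figure D3:**
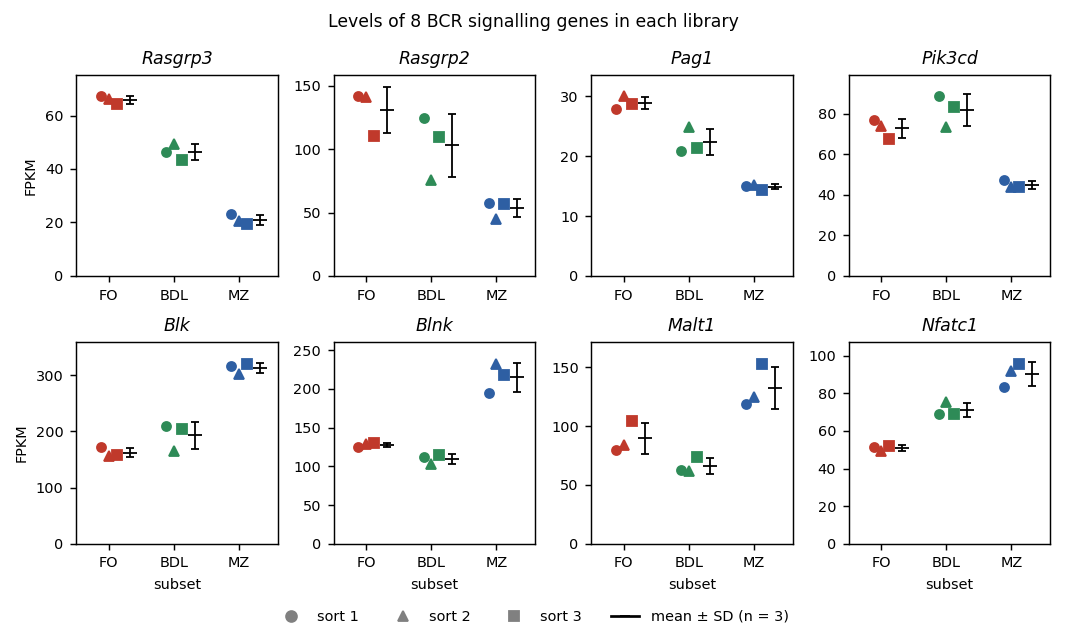
FPKM of 8 BCR signalling genes in each library (points, with shape giving the sort) by subset, with the mean and SD of 3 libraries beside them and linear axes from 0. The MZ values of Rasgrp3 (19.3 to 23.1 FPKM) and Pag1 lie below, and those of Blk (303 to 320.3 FPKM), Blnk and Malt1 above, all other libraries.

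Of phospholipase C gamma 2 and the calcium branch behind it, 2 of 4 genes were called lower in MZ than in both other subsets without the date block. Plcg2 was at 104, 106 and 97.9 FPKM in FO, 97.2, 125 and 94.4 in BDL and 68.3, 84.2 and 66.7 in MZ. It was higher in BDL than MZ (log2 fold change 0.53 ± 0.14, adjusted p = 0.0217) and lower in MZ than FO (-0.50 ± 0.14, adjusted p = 0.0273). Itpr1, an IP3 receptor of the endoplasmic reticulum, was at 24.9, 27.7 and 25.3 FPKM in FO, 23.5, 28.4 and 25.3 in BDL and 18.1, 21.8 and 18.97 in MZ, with log2 fold changes of 0.39 ± 0.10 for BDL over MZ (adjusted p = 0.0244) and -0.41 ± 0.10 for MZ over FO (adjusted p = 0.0210). All 4 of these calls were lost without MZ 1 or without MZ 3. Those between MZ and FO were also lost without FO 2, and for Plcg2 without FO 1 or FO 3 too, and that of Itpr1 between BDL and MZ without BDL 2 or BDL 3. Both calls between BDL and MZ were lost when these subsets were fitted alone. Over the alternatives their adjusted p reached 0.0774 and 0.0918 for Plcg2 and 0.0881 and 0.0828 for Itpr1.

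Stim1, the calcium sensor of the endoplasmic reticulum, ran from 17.2 to 17.5 FPKM in FO, 16.9 to 20.1 in BDL and 13.7 to 16.1 in MZ. It was higher in BDL than MZ by 0.31 ± 0.09 (SE) on the log2 scale (adjusted p = 0.0365), a call that held in 11 of 21 alternatives and was lost under both other scalings, when BDL and MZ were fitted alone and without any 1 library other than BDL 1 and MZ 2, with an adjusted p between 0.0150 and 0.124. Between MZ and FO it passed with the date block and not without it. Orai1, the channel that STIM1 opens, was at 9.56, 10.1 and 12.01 FPKM in FO, 9.70, 12.8 and 9.99 in BDL and 6.56, 9.54 and 9.19 in MZ and was called in no comparison. Its MZ values lay below all others.

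The NFAT genes, whose products enter the nucleus when calcineurin dephosphorylates them, moved in different directions. Nfatc1 was at 51.5, 49.1 and 51.8 FPKM in FO, 68.98, 75.6 and 68.9 in BDL and 83.4, 91.96 and 95.7 in MZ. It rose from FO to BDL to MZ with no overlap. On the log2 scale it differed by 0.49 ± 0.08 (SE) for BDL over FO (adjusted p = 0.0125), -0.34 ± 0.08 for BDL over MZ (adjusted p = 0.0168) and 0.83 ± 0.08 for MZ over FO (adjusted p = 0.000164). The first of these was lost without FO 1 or FO 2 (adjusted p between 0.00883 and 0.0586 over the alternatives) and the second without MZ 3 (between 0.00143 and 0.0542).

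Nfatc2, on chromosome 2, 168301910.0 to 168427157.0 of NCBIM37, was at 8.90, 10.96 and 9.74 FPKM in FO, 4.35, 6.25 and 5.66 in BDL and 10.6, 13.7 and 12.1 in MZ. All 3 BDL values lay below all others, and FO and MZ overlapped (0.29 ± 0.15 for MZ over FO, adjusted p = 0.210 without the date block, called with it). The log2 fold change was -1.16 ± 0.15 (SE) for BDL over MZ (adjusted p = 0.000953) and -0.86 ± 0.15 for BDL over FO (adjusted p = 0.0154). The difference between BDL and FO was lost without FO 2 or FO 3, with an adjusted p between 0.00176 and 0.0746 over the alternatives, while that between BDL and MZ passed in all 21. Nfatc3 was at 48.2, 56.7 and 55.9 FPKM in FO, 57.6, 87.2 and 63.8 in BDL and 50.1, 66.9 and 50.5 in MZ, with no call without the date block. By mean level, Nfatc1 and Nfatc3 were close in FO (50.8 ± 1.49 and 53.6 ± 4.66 FPKM, SD) and Nfatc2 was below both in every library.

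**Figure D4:**
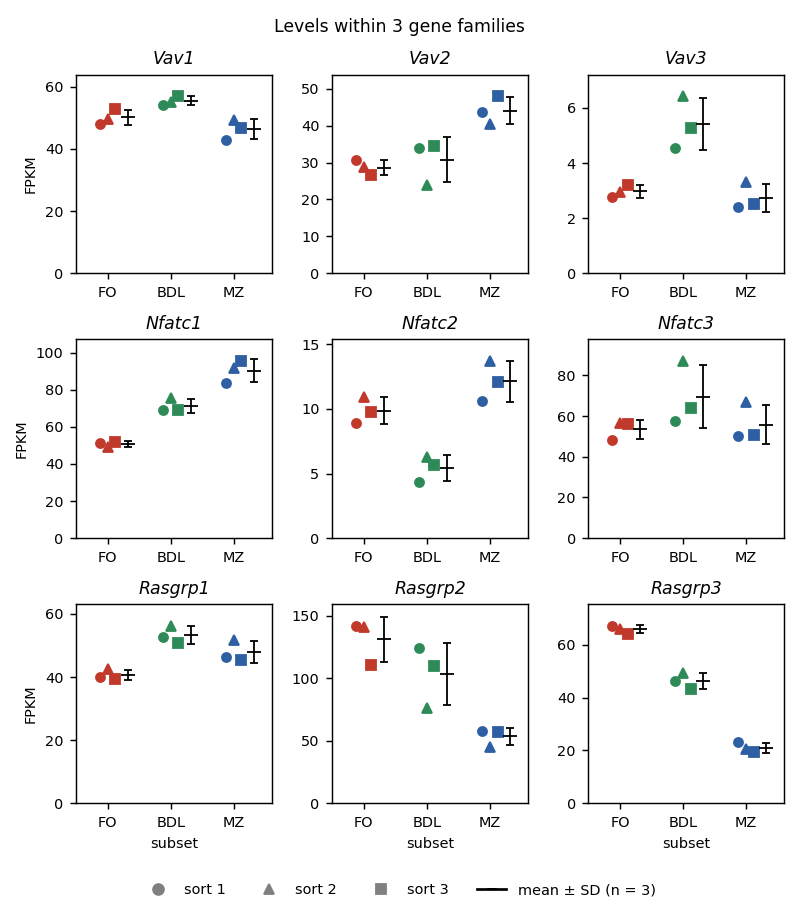
FPKM in each library (points, with shape giving the sort) by subset for the VAV, NFAT and RASGRP genes, with the mean and SD of 3 libraries beside them and linear axes from 0. Vav3 is highest in BDL and Nfatc2 lowest in BDL, Nfatc1 rises from FO to MZ, and Rasgrp3 falls from 64.2 to 67.3 FPKM in FO to 19.3 to 23.1 FPKM in MZ.

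In the protein kinase C branch, both kinases were lower and Malt1 was higher in MZ. Prkcb, the kinase that links the BCR to NF-kB, was at 97.01, 105 and 95.7 FPKM in FO, 93.5, 125 and 96.1 in BDL and 61.1, 68.8 and 58.1 in MZ. Its log2 fold change was 0.73 ± 0.13 (SE) for BDL over MZ (adjusted p = 0.00375) and -0.67 ± 0.13 for MZ over FO (adjusted p = 0.00564). Prkcd, a kinase known for its part in B cell tolerance, was at 88.3, 90.1 and 85.1 FPKM in FO, 113, 84.6 and 109.6 in BDL and 61.6, 53.5 and 64.3 in MZ, with 0.77 ± 0.13 for BDL over MZ (adjusted p = 0.00282) and -0.56 ± 0.13 for MZ over FO (adjusted p = 0.0124). For both kinases every MZ value lay below every other value. The call for Prkcd between MZ and FO was lost under quantile normalization, with an adjusted p between 0.00216 and 0.0538 over the alternatives.

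Malt1, the protease and scaffold of the complex, was at 79.9, 84.2 and 104 FPKM in FO, 62.8, 61.96 and 73.5 in BDL and 119, 125 and 153 in MZ. The subsets did not overlap, with BDL lowest and MZ highest. Malt1 differed by -0.996 ± 0.14 (SE) on the log2 scale for BDL over MZ (adjusted p = 0.00133), 0.56 ± 0.14 for MZ over FO (adjusted p = 0.0195) and -0.43 ± 0.14 for BDL over FO, which did not pass without the date block (adjusted p = 0.107) and passed with it. The call between MZ and FO was lost without any 1 of FO 1, FO 2 and MZ 3 and without all libraries of sort date 2. Its adjusted p was between 0.000848 and 0.0916 over the alternatives. Under upper quartile scaling and quantile normalization Malt1 passed 2-fold between BDL and MZ. Bcl10, its binding partner, was at 35.7, 42.5 and 39.7 FPKM in FO, 35.6, 56.6 and 36.5 in BDL and 29.5, 41.6 and 31.9 in MZ and was called in no comparison.

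The CBL ubiquitin ligases, which tag activated receptors and kinases, were split between 2 expressed genes and 1 gene near 0. Cbl ran from 32.6 to 38.6 FPKM over the 9 libraries. Cblb was at 19.3, 18.9 and 18.1 FPKM in FO, 22.7, 26.01 and 21.97 in BDL and 20.9, 23.1 and 20.6 in MZ. All BDL values of Cblb lay above all FO values, with a log2 fold change of 0.32 ± 0.09 (SE) that missed the threshold (adjusted p = 0.0619) and passed with the date block, as did MZ over FO.

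Cblc and Ubash3a were under the minimum mean of 0.5 FPKM and were left out of the main test. Cblc, on chromosome 7, 20364230.0 to 20382158.0 of NCBIM37, was at 0.0478, 0.0109 and 0.0124 FPKM in FO, 0.231, 0.268 and 0.299 in BDL and 0.670, 0.462 and 0.768 in MZ. With a longest annotated transcript of 1662 nt, these values stand for about 1 to 5 fragments per FO library, 21 to 32 per BDL library and 41 to 81 per MZ library. The subsets did not overlap. Ubash3a, which binds ubiquitin and dampens antigen receptor signalling mainly in T cells, was at 0.0404, 0.0580 and 0.0720 FPKM in FO, 0.257, 0.346 and 0.383 in BDL and 0.0561, 0.0255 and 0.0804 in MZ. It lies on chromosome 17, 31344818.0 to 31379147.0 of NCBIM37, and its values stand for about 7 to 12 fragments per FO library, 42 to 74 per BDL library and 4 to 15 per MZ library.

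When every row above 0 in any library was tested, both genes passed between BDL and FO, by 1.57 ± 0.19 (SE) for Cblc (adjusted p = 0.00487) and 1.44 ± 0.17 for Ubash3a (adjusted p = 0.00401) on the log2(FPKM + 0.1) scale. At a minimum of 0.1 FPKM these adjusted p were 0.00388 and 0.0046, and without a minimum but with a term for the sort date they were 0.00963 and 0.00586. Both genes reached a mean of 0.1 FPKM only through the subsets where they were higher. These were BDL for Ubash3a, and BDL and MZ for Cblc. The adjusted p at that minimum are therefore no support for the differences. On this scale, folds of genes so close to 0 are understated. Between BDL and MZ, again without a minimum, the log2 fold change was -0.98 ± 0.19 for Cblc (adjusted p = 0.00918) and 1.48 ± 0.17 for Ubash3a (adjusted p = 0.000694). Between MZ and FO it was 2.56 ± 0.19 for Cblc (adjusted p = 8.08e-05) and -0.04 ± 0.17 for Ubash3a (adjusted p = 0.936). The study drew both among genes that were higher in BDL on these same libraries, so these values are not independent evidence of their direction.

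The T cell markers beside Ubash3a were low in all subsets. The summed level of the 12 markers was 3.51 to 5.53 FPKM in FO, 3.35 to 5.29 in BDL and 7.25 to 8.29 in MZ, and the 3 chains Cd3d, Cd3e and Cd3g stayed under 0.8 FPKM in every library. Zap70, the T cell relative of SYK, was the largest part of the MZ sum, at 5.13, 5.40 and 4.13 FPKM in MZ against 1.33 to 1.92 in FO and 0.833 to 1.06 in BDL, and it was lower in BDL than FO (-0.75 ± 0.17 on the log2 scale, adjusted p = 0.0340). Without Zap70, the sum was 2.18 to 3.80 FPKM in FO, 2.52 to 4.23 in BDL and 1.84 to 4.16 in MZ. The other T cell markers all had a higher mean in BDL than FO, with overlapping values. Their part in the level of Ubash3a was not tested.

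**Figure D5:**
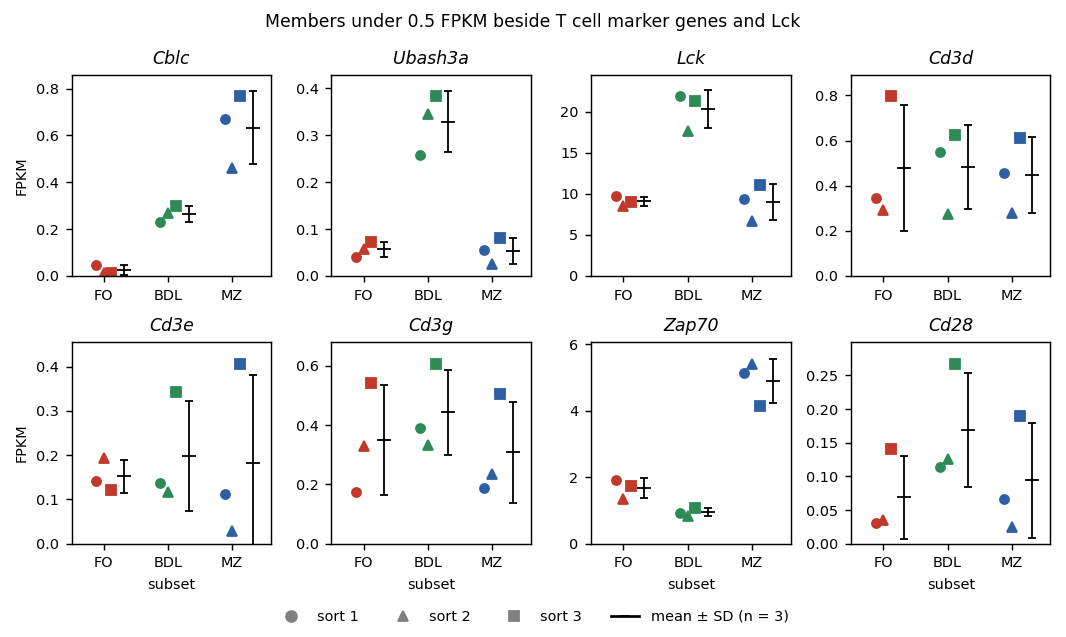
FPKM in each library (points, with shape giving the sort) by subset for Cblc and Ubash3a, for Lck, and for 5 T cell marker genes, with the mean and SD of 3 libraries beside them and linear axes from 0. Ubash3a is at 0.257 to 0.383 FPKM in BDL and at most 0.0804 in the other subsets, while Cd3d, Cd3e and Cd3g overlap in all 3.

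A further 91 genes of the BCR pathway were examined for context, of which 84 were tested. Between BDL and FO, 8 were higher in BDL and none was lower with limma (6.04% and 1.68% of all rows). At an unadjusted p under 0.05, 17 were higher and 11 lower, as compared to 17.5% and 6.87% of all rows. Between BDL and MZ, 16 were higher and 14 lower in BDL (16.5% and 11.6% of all rows). Between MZ and FO, 14 were higher and 14 lower in MZ (14.3% and 12.8% of all rows). Their median log2 fold change was 0.05 for BDL over FO, 0.13 for BDL over MZ and -0.01 for MZ over FO.

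Among these genes, the largest increases in BDL over FO were in Cd5, Lck and Ptpn22. Cd5, a co-receptor that marks B1a cells and dampens BCR signals, was at 0.638, 0.385 and 0.566 FPKM in FO, 2.21, 1.63 and 2.45 in BDL and 1.89, 1.51 and 2.18 in MZ, a log2 fold change of 1.80 ± 0.22 (SE) for BDL over FO (adjusted p = 0.00322) and 1.65 ± 0.22 for MZ over FO (adjusted p = 0.000917). Lck, a Src-family kinase best known from T cells, was at 9.67, 8.52 and 9.004 FPKM in FO, 21.9, 17.7 and 21.3 in BDL and 9.39, 6.70 and 11.02 in MZ. Its BDL values lay above all others, with 1.15 ± 0.17 over FO (adjusted p = 0.00730) and 1.18 ± 0.17 over MZ (adjusted p = 0.00160), beside Cd3d, Cd3e and Cd3g levels under 0.8 FPKM. Ptpn22, a phosphatase that acts on Src-family kinases, was at 8.77, 8.41 and 10.5 FPKM in FO, 19.2, 15.7 and 20.1 in BDL and 48.5, 48.3 and 46.7 in MZ, without overlap (0.98 ± 0.12 for BDL over FO, adjusted p = 0.00308, and 2.37 ± 0.12 for MZ over FO, adjusted p = 4.57e-06).

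Fgr, a further Src-family kinase, was lower in BDL than MZ (log2 fold change -0.52 ± 0.10) (adjusted p = 0.00522). The level of Blk was above that of Lck and Fgr in every library. Marker sums of other cells that share these genes are given beside them. The summed level of 10 myeloid markers was 6.75 to 14.6 FPKM in FO, 5.8 to 15.2 in BDL and 11.8 to 22.8 in MZ. Without Cd68, it was 1.83 to 8.92 FPKM in FO, 2.47 to 9.31 in BDL and 3.18 to 10.9 in MZ. The sum of 7 B1 cell markers, Cd5 among them, was 21.5 to 24.7 FPKM in FO, 36.8 to 42.8 in BDL and 11.0 to 20.3 in MZ. Ahnak held most of it in FO, and without Ahnak the sum was 6.69 to 8.40 FPKM in FO, 19.3 to 24.3 in BDL and 9.90 to 17.9 in MZ. All 7 markers had a higher mean in BDL than FO, and 5 had a higher mean in MZ than FO. The part of these cells in the differences was not tested.

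Of the 84 genes, Orai2 and Nck2 had the largest increases in BDL over MZ. Orai2, a calcium channel of the ORAI family, was at 34.1, 33.1 and 29.6 FPKM in FO, 33.9, 28.3 and 33.8 in BDL and 10.6, 10.1 and 10.8 in MZ, a log2 fold change of 1.595 ± 0.10 (SE) for BDL over MZ (adjusted p = 1.39e-05) and -1.61 ± 0.10 for MZ over FO (adjusted p = 1.09e-05). Nck2, an adaptor to the cytoskeleton, was higher in BDL than MZ by 1.41 ± 0.14 (adjusted p = 0.000170) and lower in MZ than FO, with -0.99 ± 0.14 (adjusted p = 0.00110). Pik3cg, the p110 gamma kinase, was higher in BDL than MZ by 1.18 ± 0.16 and lower in MZ than FO, with -1.14 ± 0.16 (adjusted p = 0.00106 and 0.00115). Tec, a kinase related to BTK, had 1.02 ± 0.15 and -1.18 ± 0.15 in the same 2 comparisons (adjusted p = 0.00155 and 0.000624). Mapk3, the kinase ERK1, and Ppp3ca, a catalytic subunit of calcineurin, passed 2-fold for BDL over MZ, by 1.10 ± 0.11 and 1.01 ± 0.19 (adjusted p = 0.000209 and 0.00545).

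In the opposite direction, Dok2 and Cr2 had the largest decreases in BDL as compared to MZ. Dok2, an inhibitory adaptor, was at 0.503, 0.401 and 0.675 FPKM in FO, 0.311, 0.370 and 0.507 in BDL and 2.98, 3.40 and 3.09 in MZ, a log2 fold change of -2.73 ± 0.21 (SE) for BDL over MZ (adjusted p = 5.10e-05) and 2.40 ± 0.21 for MZ over FO (adjusted p = 8.44e-05). Its means in FO (0.526 FPKM) and BDL (0.396) lay near the minimum of 0.5 FPKM. Dok2 passed that minimum mainly through MZ, so its adjusted p are weak support. Cr2 encodes CD21, on which MZ B cells were sorted, so its level of 456, 505 and 400.0 FPKM in MZ against 97.8 to 149.7 in the other libraries was part of the sort. Lax1, an inhibitory membrane adaptor, was lower in BDL than MZ, with a log2 fold change of -1.23 ± 0.20 (adjusted p = 0.00289). Ptprj, the phosphatase CD148, and Cd81, which travels with CD21 on the B cell surface, were higher in MZ than FO by 1.21 ± 0.10 and 1.05 ± 0.17 (adjusted p = 4.54e-05 and 0.00259).

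Markers of other cells and states were summed beside these genes. The sum of 12 cell cycle markers was 32.1 to 35.7 FPKM in FO, 43.4 to 48.1 in BDL and 41.04 to 52.6 in MZ, and 10 of them had a higher mean in BDL than FO. Without Tyms, the sum was 18.5 to 19.4 FPKM in FO, 33.7 to 34.4 in BDL and 29.5 to 36.2 in MZ. The sum of 5 transitional markers in the table was 305 to 367 FPKM in FO, 457 to 695 in BDL and 361 to 463 in MZ, most of it Cd24a. Without Cd24a, it was 95.3 to 115.7 FPKM in FO, 124 to 161 in BDL and 19.9 to 25.2 in MZ. All 5 transitional markers had a higher mean in BDL than FO, and 1 had a higher mean in MZ than FO. Erythroid markers summed to 2.14 to 4.43 FPKM in FO, 7.16 to 8.24 in BDL and 3.21 to 5.72 in MZ. Of the 7 in the table, 3 had a higher mean in BDL than FO. Hbb-b1, a globin, was higher in BDL than FO by 1.94 ± 0.27 on the log2 scale (adjusted p = 0.00542). Without Hbb-b1, the erythroid sum was 0.887 to 2.40 FPKM in FO, 1.36 to 2.03 in BDL and 1.74 to 2.75 in MZ. Plasma cell markers summed to 186 to 223 FPKM in FO, 128 to 207 in BDL and 224 to 296.1 in MZ, most of it Irf4. Without Irf4, the sum was 20.8 to 21.2 FPKM in FO, 25.8 to 27.7 in BDL and 24.5 to 28.0 in MZ. Of the 6 plasma cell markers, 3 had a higher mean in BDL than FO. Sdc1 (syndecan-1) was higher in BDL than FO by 2.42 ± 0.25 (adjusted p = 0.00147), whereas Irf4 was not called (-0.42 ± 0.21). Germinal centre markers summed to 31.7 to 37.9 FPKM in FO, 32.8 to 35.5 in BDL and 9.99 to 11.9 in MZ, most of it Bcl6. Without Bcl6, the sum was 2.72 to 3.44 FPKM in FO, 6.73 to 9.84 in BDL and 2.91 to 3.71 in MZ. Of the 6 germinal centre markers in the table, 4 had a higher mean in BDL than FO. Rgs13, a regulator of G protein signalling, had a mean of 0.220 FPKM in FO, 4.64 in BDL and 0.150 in MZ. Its log2 fold change for BDL over FO was 3.85 ± 0.33. It reached the minimum level of 0.5 FPKM only through BDL, so no p-value is given for it. Bcl6 was not called between BDL and FO (-0.30 ± 0.12). NK cell markers summed to 2.73 to 7.84 FPKM in FO, 2.51 to 6.48 in BDL and 6.95 to 12.8 in MZ. Without Prf1, the sum was 1.38 to 5.98 FPKM in FO, 1.94 to 5.33 in BDL and 0.795 to 5.49 in MZ. Of the 7 NK cell markers, 4 had a higher mean in BDL than FO and 3 in MZ than FO. The part of these cells and states in the results was not tested.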

How the data were processed

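RNA-seq was analysed for 9 libraries, 3 per subset. The authors mapped the reads to mm9 with TopHat2 2.1.0, estimated FPKM with Cufflinks and deposited 1 FPKM per gene and library. The study's methods describe a stranded kit, whereas the labels describe single-end libraries that are not strand specific. The authors' Cuffdiff table, which holds their fold changes and p-values, was not used. Cufflinks FPKM are model estimates on gene models, so reads shared between overlapping or similar genes may be divided differently from counts.

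FPKM were used as deposited, as log2(FPKM + 0.1). Rows whose mean over the 9 libraries reached 0.5 FPKM (11597 of 24459) entered a model in limma 3.58.1 (R 4.3.3) that had no term other than the subset, with lmFit, a contrast per comparison and eBayes with trend. Benjamini-Hochberg adjustment ran over all rows tested, and calls were made at an adjusted p under 0.05, and separately also at 2-fold or more. The table holds no counts. In genes with a transcript of at least 3000 nt, 74.8% to 80.7% of the low values in each library came within 0.1 of whole fragments (20% for evenly spread values), so fragment numbers are approximate. Gene positions came from GENCODE M1 on NCBIM37 and promoters from RefSeq on GRCm38.p6. Figures were drawn with matplotlib 3.10.9 in Python 3.11.15. The fit was tested on simulated data.

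The 43 genes and all gene lists were chosen with earlier results of these data known. Genes named in full were those at 2-fold or more, in each comparison the 6 with the largest change in each direction among those called, the 5 with the highest mean, those under the minimum, and the Vav, Nfatc, Cbl, Rasgrp and Src families. Of the other pathway genes, those at 2-fold or more and the 3 with the largest change in each direction among those called were named, with Rasgrp1 and Fgr added as relatives of members; a gene that meets this rule is not reported here. Other members were described after their values were seen. Libraries were paired by the date in their titles. Deviations of same-date libraries from their subset means correlated across genes by 0.147, 0.049 and -0.062 for BDL and FO in sorts 1 to 3, by 0.1, 0.244 and 0.182 for BDL and MZ, and by 0.024, 0.014 and 0.008 for FO and MZ. Alternatives were other pseudocounts (0.01 and 1), minimum levels, scalings, a date block, fits of 6 libraries, no trend, and leaving out each library. A minimum of 0.1 FPKM, leaving out sort date 2, and the block with no minimum were added after the data were seen.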

Additional observations from a re-analysis of the deposited data

How the results depend on the processing

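With the replicate block (sort date as a term), 5 genes in place of 2 were higher in BDL than FO, where the calls over all rows went from 701 higher and 195 lower to 1806 and 572, and the block moved no other count of calls among these genes by over 1.5 times and ended no call: it gave 4 lower in BDL than FO, 23 higher and 7 lower in BDL than MZ (3043 and 1909 over all rows), and 9 higher and 18 lower in MZ than FO (2285 and 2215). At 2-fold between BDL and MZ, 2 genes became 4 under upper quartile scaling and 5 under quantile normalization. Leaving out 1 library gave 0 to 3 genes higher and 0 to 3 lower in BDL than FO, 12 to 20 higher and 5 to 7 lower in BDL than MZ, 4 to 6 higher and 8 to 17 lower in MZ than FO, 2 to 4 at 2-fold between BDL and MZ, 2 between MZ and FO and 0 between BDL and FO. Without replicate 2 of every subset, 4 were lower in BDL than FO and 18 in MZ than FO. Upper quartile scaling moved the median log2 fold change of all rows for BDL over MZ from 0.06 to -0.05 and the calls over all rows from 1909 higher and 1346 lower to 1529 and 1877; for the BCR signalling genes it gave 15 higher and 7 lower. Quantile normalization moved the calls over all rows for BDL over FO from 701 higher and 195 lower to 626 and 351. Of the values of single genes under the alternatives, 2426 kept their side of the threshold, 72 passed it newly and 85 lost it. The sign changed in 66 of the 2583 values, in 21 differences, of at most 0.19 on the log2 scale and without a call before or after the change; the cause was not tested. With 3 libraries per subset, the standard error of a log2 fold change ran from 0.08 to 0.23 among genes without a call. Differences larger than their standard error were also left without a call. In the fit without the date block, these included Cd79b (0.44 ± 0.22) and Malt1 (-0.43 ± 0.14) for BDL over FO. A gene without a call may therefore still differ between subsets.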
